A study of Solanum tuberosum with 6 samples.

Results

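The response described here is the leaf response to salt in the potato (Solanum tuberosum) cultivar PS3, averaged over day 1 and day 3. The mean of the responses on these days was taken to look for the lasting part. A single day can carry this mean, so a call on it is not by itself a lasting change. The members were all clones of a cDNA array that had a value on at least 2 arrays of each day. This gave 9030 of the 10499 clones in the table. Each member was tested for an average that differed from 0, and the clones with the same sign on every measured array of both days were then described. Of the 9030 clones, 6706 carried an annotation that names a similar gene, often from another species, so a name is that of the best match and not of the potato gene itself.

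Salt plants had been watered with 75 mL of 150 mM NaCl and control plants with an equal volume of tap water. Both were soil-grown plants of the same cultivar, raised in a culture room after in vitro multiplication, and the sampled tissue was the first and second leaf. Salt plants of day 1, salt plants of day 3 and the control plants of each day gave 3 biological replicates apiece, and the plants of the 2 days were different plants. Each of 6 two-colour arrays set the leaf RNA of a salt sample against that of a control sample of the same day, so every value is a log2 ratio of salt over control and holds no absolute level.

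Salt in the root zone lowers the water that a plant can draw from the soil, and sodium and chloride then build up in the leaf. Leaves are known to answer through abscisic acid, jasmonate and ethylene signalling, by closing their stomata, making dehydration-protective proteins and cutting back growth and photosynthesis. Early signals often fade while the plant adjusts, so a change that is present both 1 and 3 days after the watering marks the part of the response that outlasts the first day.

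The labels name the control as the reference of every array, which makes salt over control the likely direction. The direction and the log base are not spelled out there, and the values were taken as base 2. On either day, replicates 1 and 3 carried the salt sample in Cy3 and replicate 2 carried it in Cy5, and the fit held a dye term for each clone. The average is therefore dye-balanced: both dye orientations weigh the same in it, and it can differ from the plain mean of the 6 ratios. With the ratios of replicate 2 turned in sign, as they would run if they had not been turned by dye before deposit, limma called 0 clones on the average (868 at an unadjusted p under 0.05), and the median residual SD of a clone was 0.266, against 0.204 for the ratios as deposited. For clones measured on all arrays, the average of the turned reading is the dye term of the fit with its sign changed.

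The arrays measured between 7867 and 10381 clones, and their median ratios lay between -0.005 and 0.049. Across clones, which are not independent replicates, arrays of day 1 correlated with each other at a Pearson r between 0.506 and 0.809 and arrays of day 3 at 0.475 to 0.639. Day 3 replicate 1 stood apart from all 3 arrays of day 1, with r of 0.031, -0.086 and 0.006. Since a ratio holds no level, the identity of the tissue could not be checked from leaf markers. In whole leaves, fewer cells of a type and less RNA per cell cannot be told apart.

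Salt changed the average ratio of 1629 clones (18.0% of those tested), more of them downwards than upwards. There were 963 clones lower with salt, 10.7% of those tested, and 666 clones higher, 7.38% of those tested (limma, Benjamini-Hochberg adjusted p under 0.05, 2672 clones at an unadjusted p under 0.05). Large changes were mostly falls: an average beyond 1 on the log2 scale was found in 157 clones that were lower (1.74%) and 46 that were higher (0.509%). The median average of all tested clones was 0.02. A general shift of all genes could not be seen in ratios whose array medians lie near 0. A clone measured on all arrays had 3 residual degrees of freedom, and the 1398 clones lacking at least 1 array had fewer. The median SE of an average was 0.09, and no average closer to 0 than 0.26 passed the test.

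A change of one sign on every measured array was found in 1321 clones, 14.6% of those tested, with 673 always positive (7.45%) and 648 always negative (7.18%). Of these, 871 also passed the test on the average (9.65% of those tested). They were 502 clones lower with salt (5.56%) and 369 clones higher (4.09%), and they are the clones described below as one-signed. The sign was read from the values that the test used, so it describes the calls and adds no independent support. Every measured array lay at least 1 log2 unit from 0 in 19 one-signed clones that were lower and in 3 that were higher.

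**Figure D1:**
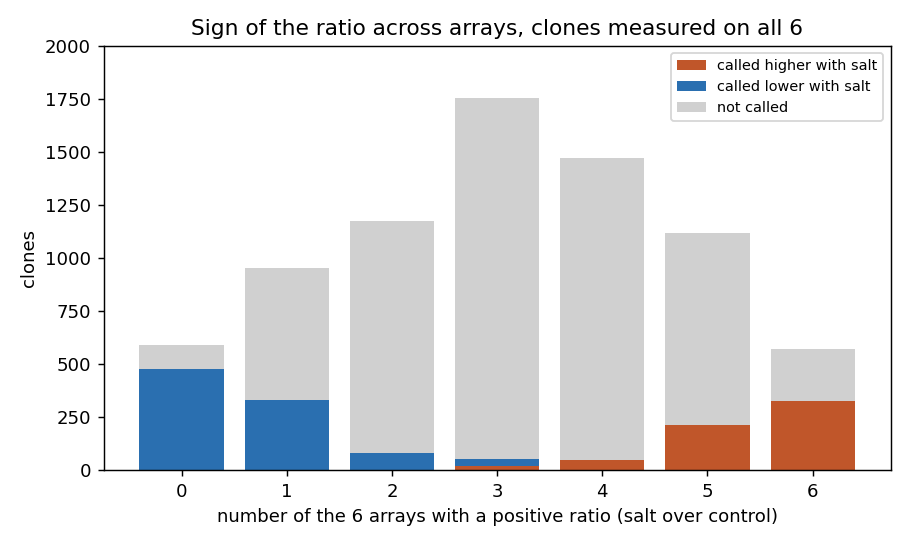
Number of clones (vertical axis) by how many of the 6 arrays gave a positive ratio of salt over control (horizontal axis), for the 7632 clones measured on all arrays; colours mark calls on the average of both days. The ends hold 592 clones with no positive array and 572 with 6 positive arrays, and calls become rarer towards the middle.

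Clones that passed the test without one sign failed it mainly through a single array. Among the called clones measured on all arrays, 444 of 920 that were lower and 283 of 612 that were higher had a ratio of the other sign somewhere. A single array was of the other sign in 330 and 213 of these, and that array was day 3 replicate 1 in 243 and 161 of them. Leaving this array out raised the one-signed calls to 1013 lower and 777 higher, among the 7709 clones then tested and with 1 array fewer to match in sign.

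The largest falls named a lectin, germin-like proteins, wall enzymes and a water channel. The lectin clone STMCQ19, similar to a chitin-binding lectin of potato that recognises chitin fragments, had -2.37, -2.78 and -3.20 on day 1 and -6.62, -4.69 and -4.83 on day 3. Every array lay far below 0, the 3 arrays of day 3 lowest. Its average of -3.99 ± 0.24 (SE, 6 arrays, adjusted p = 4.7e-05, limma) was the largest change in either direction among the 9030 clones. The germin-like clone STMCM83, of a family of extracellular glycoproteins, read -3.78, -4.18 and -3.45 on day 1 and -2.35, -3.23 and -3.28 on day 3, with an average of -3.46 ± 0.13 (SE, adjusted p = 5.56e-06, limma). Here the days lay close together, with day 1 a little lower. A further germin-type clone, STMFB56, similar to the auxin-binding protein ABP19a of peach, was measured on 4 arrays at -2.46 and -1.52 on day 1 and -1.04 and -2.45 on day 3, for an average of -2.22 ± 0.20 (SE). Its day 1 arrays both had salt in Cy3, so its dye term of -0.70 rested on day 3 alone. The fitted day 1 ratio of -2.695 lay below both measured values of that day, and the size of the average depends on that dye term.

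The pectin enzyme and the water channel were lower by similar amounts on both days. The pectin methyl esterase clone STMIU31, an enzyme that removes methyl groups from wall pectin, had -2.24, -2.96 and -2.20 on day 1 and -2.50, -2.67 and -2.63 on day 3. All 6 values fell within less than 1 log2 unit, the average was -2.60 ± 0.09 (SE, adjusted p = 5.56e-06, limma), and day 3 minus day 1 was -0.13. The aquaporin clone STMEA30, a membrane channel for water, gave -2.24, -1.71 and -1.52 on day 1 and -2.33, -2.08 and -2.05 on day 3, for an average of -1.96. An N-acetylglucosaminyltransferase clone, STMIX44, from the synthesis of glycans on secreted proteins, averaged -1.93 with no array above -1.42. The clone STMCF50, annotated as the EEF53 protein of eggplant, averaged -1.72 with values between -2.74 and -1.19.

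Other leading falls had one sign on every array but were far from equal between the days. The clones STMCL06, with no known function in its annotation, and STMCH16, named after a cell elongation protein of cotton fibre, lay between -0.73 and -0.27 on day 1 and between -5.67 and -4.25 on day 3. Their averages were -2.67 and -2.55, and day 1 by itself did not pass the test for STMCL06 (limma, adjusted p = 0.252). The clone STMCN85, of the same assembly as STMCL06, read 0.22, -0.62 and 0.59 on day 1, without one sign. The acid phosphatase clone STMCI91, of enzymes that free phosphate, read -0.82, -1.14 and -0.79 on day 1 and -3.30, -3.57 and -3.45 on day 3. The GAST1 clone STMJC16, a gene named for its stimulation by gibberellin in tomato, ran the other way, at -4.88, -3.82 and -3.73 on day 1 and -1.29, -0.09 and -0.38 on day 3. Its average of -2.26 thus came almost wholly from day 1, with 2 arrays of day 3 near 0, and day 3 by itself did not pass the test (limma, adjusted p = 0.332). The clone STMDB68, annotated with an Arabidopsis protein of no given function, averaged -2.14, with -4.97 on day 3 replicate 1 and -2.46 to -1.04 on the other arrays. It averaged -1.82 without day 3 replicate 1.

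The largest rises were smaller than the largest falls, and they named an RNA-decay factor and transcription factors. The clone STMEK04, similar to an Arabidopsis protein of no given function, had 2.66, 2.43 and 3.02 on day 1 and 1.25, 3.12 and 3.55 on day 3. It was high on every array, least so on day 3 replicate 1, and its average of 2.70 ± 0.28 (SE, 6 arrays, adjusted p = 0.000446, limma) was the largest rise. A clone similar to a CCR4-associated factor, STMDD59, of the complex that shortens the poly(A) tails of mRNA, read 1.90, 2.28 and 2.45 on day 1 and 1.07, 2.16 and 2.74 on day 3, for an average of 2.13. The ethylene response factor 5 clone STMIK39, a transcription factor of the AP2 family, read 2.32, 2.19 and 2.16 on day 1 and 0.72, 2.00 and 1.71 on day 3, with an average of 1.91 ± 0.15 (SE, adjusted p = 0.000152, limma). In all 3 clones the lowest of the 6 values was that of day 3 replicate 1.

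The next rises named a DNA-binding protein, a WRKY factor and enzymes of protein degradation. The clone STMEF49, annotated as DNA-binding protein 4 of tobacco, averaged 1.58, and all 4 clones of that annotation were higher with one sign, at averages between 0.64 and 1.58. The WRKY clone STMCN79, of a plant family of transcription factors active in defence and stress, had 1.81, 1.86 and 1.20 on day 1 and 0.49, 1.57 and 1.23 on day 3. The RING-H2 finger clone STMIU24, of a class of ubiquitin ligases, had 1.17, 1.66 and 1.21 on day 1 and 0.72, 1.58 and 1.51 on day 3. The 2 clones averaged 1.45 and 1.39, and in both the days overlapped. The vacuolar processing enzyme clone STMHL75, a cysteine protease of the vacuole, averaged 1.53 and the wound-inducible clone STMIW38 1.56, each with every array of day 1 above every array of day 3. A nucleoside diphosphate kinase clone, STMGY04, which passes phosphate between nucleotides, averaged 1.64 with values between 0.35 and 2.45.

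The remaining leading rises covered signalling, lipid transfer and nuclear proteins. The lipid-transfer protein clone STMGQ20, of small proteins that carry lipids outside the cell, read 0.56, 1.21 and 1.32 on day 1 and 2.11, 1.51 and 1.57 on day 3. Every value of day 3 was higher than every value of day 1. Its average was 1.37, and the 3 clones of that annotation were all higher with one sign, at 0.57 to 1.37. Averages of 1.29 for a topoisomerase clone (STMHT71), 1.26 for a protein kinase clone (STMIK40), 1.25 for a harpin-inducing protein clone (STMHS15), 1.22 for a Nudix hydrolase clone (STMHE88) and 1.21 for a clone annotated only as binding (STMIZ10) completed the 15 largest rises of annotated one-signed clones, 1 per annotation. Of these, STMHS15 held the same level on both days, with day 3 minus day 1 at 0.08, whereas STMIZ10 lay at 1.96 or higher on day 1 and at 0.55 or lower on day 3.

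**Figure D2:**
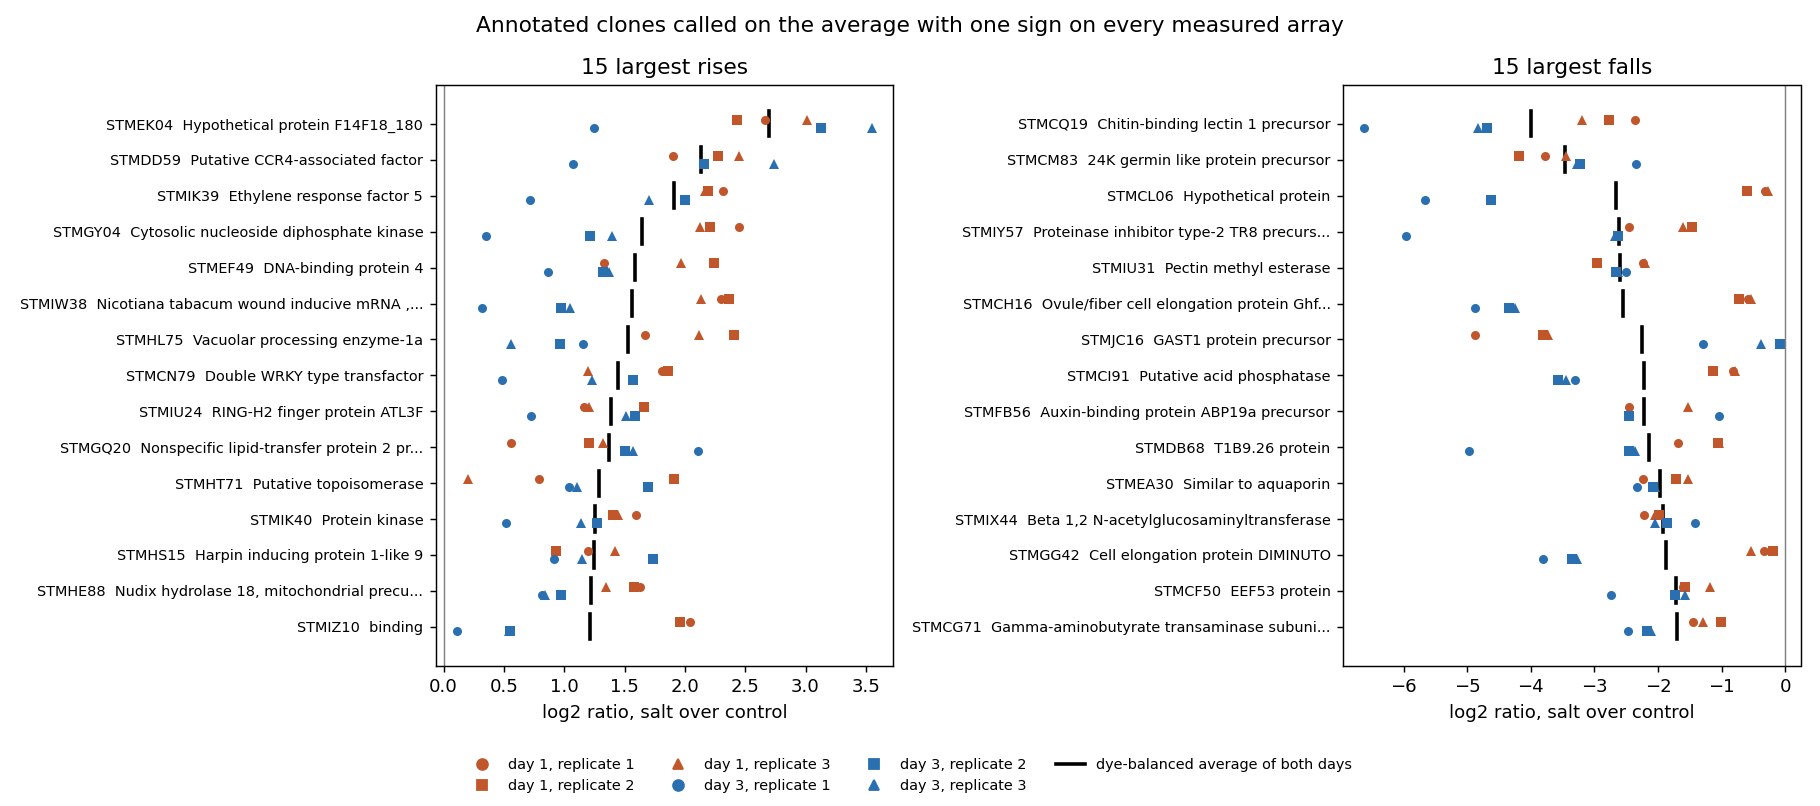
Log2 ratios of salt over control (horizontal axis) on each of the 6 arrays for the leading 15 rises and 15 falls of annotated one-signed clones, 1 clone per annotation; red points are day 1, blue points day 3, marker shape gives the replicate, and the black bar is the dye-balanced average. STMIU31 shows similar falls on both days, STMCL06 and STMCH16 fall mostly on day 3 and STMJC16 mostly on day 1.

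In many of the called clones the average stood for unequal days. Of the 1629 called clones, 303 had a higher ratio on day 3 than on day 1 and 278 a lower one (limma, adjusted p under 0.05 for the difference), against 6.2% and 4.99% of all tested clones. Clones that were lower with salt differed between the days in 405 of 963 cases, and in 290 of these the fall was larger on day 1. Clones that were higher with salt differed in 176 of 666 cases, and in 163 of these the rise was larger on day 1. Among the one-signed clones a difference was called in 110 of 502 that were lower and 39 of 369 that were higher. The median ratios of one-signed falls were -0.63 on day 1 and -0.53 on day 3, and those of one-signed rises were 0.56 on day 1 and 0.40 on day 3.

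Few clones passed the test on each day by itself in the same direction. On day 1 11.3% of the tested clones were lower and 8.96% higher, and on day 3 these shares were 4.43% and 1.93%. There were 177 clones lower on both days (1.96% of those tested) and 92 higher on both (1.02%), and 38 clones passed on both days in opposite directions (0.421%). Among the clones called lower on the average, 528 passed on day 1 alone, 162 on day 3 alone and 90 on neither day. Among those called higher, 429 passed on day 1 alone, 31 on day 3 alone and 114 on neither. The fitted day 1 and day 3 ratios had opposite signs in 153 of the 963 called lower and 63 of the 666 called higher. In the authors' deposited table, 339 tested clones had a p-value under 0.05 on both days, with both day means above 0 in 101, both below 0 in 169 and opposite signs in 69. The average was called by limma in 266 of the 339.

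**Figure D3:**
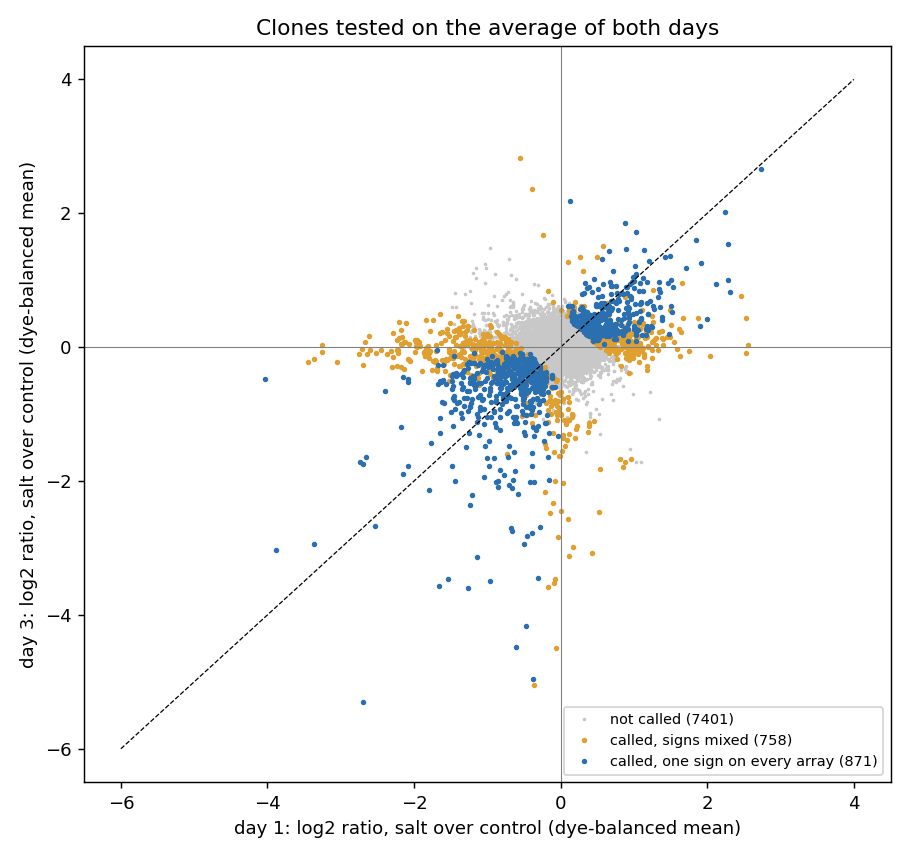
Dye-balanced log2 ratio of salt over control on day 3 (vertical axis) against day 1 (horizontal axis) for the 9030 tested clones; the dashed line marks equal ratios. The 871 called one-signed clones lie in the lower left and upper right, and many of the other called clones lie along the axes, where a single day carried the change.

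The clones with the most equal days among those beyond 1 in size were 5 falls and 5 rises. The extensin-like clone STMCR06, a structural wall glycoprotein, read -1.24, -1.40 and -1.16 on day 1 and -1.60, -1.06 and -1.22 on day 3, a difference of -0.02 on an average of -1.27. The clones STMEA15 and STMEA11, annotated as the tomato xylosidase-type protein LEXYL2, averaged -1.13 and -1.09 with differences of 0.01 and 0.07. A fimbrin clone, STMEA16, of proteins that bundle actin, averaged -1.10 with a difference of -0.10. These last 3 clones belong to a run of clone names, STMEA with numbers 02 to 30. In it 8 of 13 tested clones were lower with one sign, STMEA30 and STMEA13 among them, and LEXYL2 was the annotation of 3. Over all 34 tested STMEA clones 9 were lower with one sign, beside 5.56% of all tested clones. The range of numbers was chosen with these values known. What the run has in common was not tested. Among the rises, STMEK04, STMIU24 and STMHS15 held differences between -0.07 and 0.08, a mitochondrial dicarboxylate carrier clone (STMHA35) averaged 1.01 with a difference of 0.07, and an Arabidopsis mRNA clone (STMIZ85) 1.06 with 0.06. In STMHA35 the value of day 3 replicate 1, 0.64, was the lowest of the 6. STMIZ85 read 1.355 and 1.43 on the arrays with salt in Cy5 and 0.56 to 0.90 on the others. Its dye term was 0.34, and the size of its average depends on that term.

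Carbonic anhydrase, a leaf enzyme that turns carbon dioxide into bicarbonate and back, shows the opposite pattern. All 5 of its clones were called lower on the average, at -1.84 to -1.61, and none was one-signed. The clone STMCV75 read -2.96, -3.65 and -3.41 on day 1, against 0.91, -0.68 and -0.58 on day 3, and its average described neither day. Of the other large calls without one sign, 4 were falls with day 1 values of mixed sign, between -0.88 and 0.68. All 4 read -3.13 or lower on every array of day 3. They were clones of a hypothetical protein (STMGI29, average -2.71, and STMCN85, -2.27), gamma tubulin (STMGM17, -1.88) and a cytochrome P450 (STMGN13, -1.80). Among the rises they were a WD-repeat clone (STMCF40, average 1.61), a mitochondrial porin clone (STMGI75, 1.48), a class 1 chitinase clone (STMHO72, 1.30), an uncharacterised Arabidopsis match (STMIA28, 1.22) and a histone H1 clone (STMGF62, 1.16). In all 5 the single negative value was day 3 replicate 1, between -1.54 and -0.16. The call of STMHO72 was lost without day 1 replicate 1 or day 3 replicate 2 and that of STMGI75 without day 3 replicate 2, at adjusted p up to 0.301 and 0.0555 (limma).

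Light-harvesting and photosystem proteins capture light and run electron transport in the thylakoid. Of 68 clones, 53 were called lower and 1 higher, and 34 of the falls were one-signed. Among all tested clones 10.7% were called lower and 7.38% higher, the shares to set beside this and every later list. The median average of the list was -0.66, with -1.04 on day 1 and -0.32 on day 3, against 0.02 for all tested clones. The 53 falls became 31 without day 3 replicate 2 and 56 without day 3 replicate 1.

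The falls of light harvesting were smaller on day 3 for most of the clones named here. The clone STMCY82, a light-harvesting chlorophyll a/b-binding protein of photosystem II, had -1.86, -1.61 and -1.49 on day 1 and -1.30, -0.997 and -0.92 on day 3, for an average of -1.35 ± 0.09 (SE, adjusted p = 0.0001, limma). Every array was well below 0 and the days did not overlap, but the difference of 0.58 did not pass the test. Of the 11 clones with that annotation, 9 were lower, all 9 with one sign. The CP24 clone STMIY56, a minor antenna protein, averaged -1.30, and the chlorophyll a/b-binding clone STMCK76 averaged -0.93. In the oxygen-evolving enhancer 1 clone STMCP64, a subunit of the water-splitting complex, day 1 lay between -1.73 and -1.66 and day 3 between -0.07 and -0.02, so that one sign on all 6 arrays did not mean a lasting fall of any size.

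Of 56 clones of carbon fixation and photorespiration, 31 were called lower and 1 higher, and a single one of the falls was one-signed. The list's median ratio was -1.22 on day 1 and 0.08 on day 3. By array the median of day 3 was 0.91, -0.25 and -0.26, so replicate 1 of that day was opposite in sign to the other two. Without day 3 replicate 1 the calls were 44 lower and 3 higher, and without day 3 replicate 2 they were 8 lower and 1 higher. Of the 20 clones annotated as the Rubisco small subunit, part of the enzyme that fixes carbon dioxide, 15 were lower and none was one-signed. Rubisco activase, which frees that enzyme's active site, had 5 clones lower and 1 higher of 6, none one-signed. The one-signed fall was a ribulose-phosphate 3-epimerase clone of the Calvin cycle, STMHR52, at -0.44, with values of -0.24 or higher on day 3. Its call was lost without replicate 2 of either day (adjusted p up to 0.246, limma).

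Plastid ribosomal proteins were lower in 13 of 31 clones and higher in 0, with 2 of the falls one-signed and median ratios of -1.03 on day 1 and 0.16 on day 3. The clones STMCQ24, similar to ribosomal protein S1, and STMCN52, ribosomal protein L24, averaged -0.69 and -0.44, both with day 3 values no lower than -0.36. Chlorophyll and carotenoid synthesis was lower in 10 of 24 clones and higher in 0, with 3 falls one-signed. They were a uroporphyrinogen III synthase clone (STMCV37, average -0.57, with -0.29 on day 1 and -0.86 on day 3) of chlorophyll synthesis, and clones of lycopene epsilon-cyclase (STMDG03, -0.55) and phytoene synthase (STMCV10, -0.39) of carotenoid synthesis. Without day 3 replicate 2 the falls numbered 1 plastid ribosomal clone and 2 of pigment synthesis, and without day 3 replicate 1 they numbered 25 and 14. All named clones here except STMCQ24 lost their call without day 3 replicate 2, with adjusted p up to 0.324 over the arrays left out (limma). Cytosolic ribosomal proteins were higher in 1 and lower in 1 of 70 clones.

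In the list of the response to dehydration and abscisic acid 17 of 45 clones were called higher, 12 of them one-signed, none was called lower and 28 did not pass the test. The list's median average was 0.17, with 0.24 on day 1 and 0.06 on day 3. Leaving out day 3 replicate 2 left 4 rises, and leaving out day 3 replicate 1 gave 19 rises and 1 fall. An RD22-like clone, STMCR18, named after an Arabidopsis gene that responds to dehydration, had 1.02, 1.44 and 1.47 on day 1 and 0.78, 1.06 and 0.98 on day 3. All 6 arrays were near or above 0.8 and the average was 1.16 ± 0.09 (SE, adjusted p = 0.000163, limma).

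Clones of a transcription factor and of a phosphatase of the same response had similar ratios on both days, though equality was not tested. The 4 clones annotated as dehydration-responsive element binding protein 3 of tomato, of the factors that switch on dehydration genes, were all higher with one sign, at averages between 0.39 and 0.70. The clone STMCY54 read 0.67, 0.60 and 0.79 on day 1 and 0.36, 0.80 and 0.90 on day 3, with a day difference of 0.00. A protein phosphatase 2C clone, STMGP26, of a family that includes negative regulators of abscisic acid signalling, averaged 0.81 with values between 0.47 and 1.31. The osmotin-like clone STMIT70, of a family induced by osmotic stress, averaged 0.92 and was higher on day 1, at 0.79 to 1.58, than on day 3, at 0.07 to 0.92. Without day 3 replicate 2 the calls of STMCY54 and STMGP26 were lost, at adjusted p = 0.0629 and 0.0682 (limma).

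Other regulators moved in both directions. Beside the single ethylene response factor above, 1 more of the 4 clones of ethylene response and AP2 factors was called higher and none lower. Of 168 clones of other transcription factors, 23 were higher and 9 lower, with 12 and 5 of these one-signed, and the list's median average was 0.07. Among all tested clones 7.38% were higher and 10.7% lower. A NAC factor clone, STMEZ82, of a plant family active in stress and ageing, had 1.08, 1.12 and 1.08 on day 1 and 0.87 and 1.18 on day 3, for an average of 1.07. A homeobox clone similar to HAT22, STMIZ28, averaged 0.83, and a zinc finger clone, STMGT55, averaged -1.48, with day 3 minus day 1 at -1.24. Without day 3 replicate 2 the list held 7 rises and 2 falls, and without day 3 replicate 1 it held 38 and 17.

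In the list of calcium sensors and kinases 4 of 41 clones were higher, all one-signed, and 4 were lower, 2 of them one-signed, near the 7.38% and 10.7% of all tested clones. Leaving out day 3 replicate 2 gave 2 of each. A calmodulin-like clone, STMER65, read 0.79, 1.15 and 0.96 on day 1 and 0.77, 1.38 and 1.33 on day 3, for an average of 1.11. A calcium-binding allergen clone, STMHY91, averaged 0.93. A calcium-dependent protein kinase clone, STMGY24, averaged 0.43, and a 14-3-3 protein clone, STMJM46, which binds phosphorylated partners, averaged -0.998. The call of STMGY24 was lost without replicate 2 of either day (adjusted p up to 0.21, limma).

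Of 57 clones of ion and water transport, 9 were lower and 6 higher, beside 10.7% lower and 7.38% higher among all tested clones. The cyclic nucleotide-gated channel clones STMIT24 and STMHZ73 changed in opposite directions. STMIT24, similar to channel 4 of Arabidopsis, lay at 0.02 to 0.38 on day 1 and at 2.01 to 2.52 on day 3, for an average of 1.15. STMHZ73, similar to channel 6, lay between -1.45 and -0.78 on all arrays and averaged -1.11. The aquaporin clone STMIS78, similar to NIP5.1, averaged -0.91 and was lower on day 1, at -1.54 to -1.27, than on day 3, at -0.67 to -0.12. Leaving out day 1 replicate 2 left 1 rise and 4 falls.

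In the list of cell wall and expansion 25 of 69 clones were called lower and 41 were not called. It holds pectin enzymes, expansins, extensins and wall proteins that loosen or stiffen the wall during growth. Of the falls 22 were one-signed, and 3 clones were higher, all one-signed. The median ratio of the whole list was small, -0.10 on day 1 and -0.17 on day 3. Besides the pectin methyl esterase and the extensin-like clone given above, the proline-rich protein clone STMGL17 had -1.64, -1.52 and -2.04 on day 1 and -1.75, -0.90 and -1.45 on day 3, with an average of -1.47. A pectinesterase clone, STMJK74, averaged -1.06 with a day difference of 0.14. The falls were 13 without day 3 replicate 2 and 26 without day 3 replicate 3, and in 4 of the 25 the days differed.

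Plants make sterols for their membranes and, from one of them, the growth hormones called brassinosteroids. Of 30 clones of sterol and isoprenoid synthesis, 14 were lower, 9 of them one-signed, 0 were higher and 16 were not called, with list medians of -0.19 on day 1 and -0.41 on day 3. The DIMINUTO clone STMGG42, a sterol reductase needed for brassinosteroid synthesis, had -0.33, -0.19 and -0.53 on day 1 and -3.80, -3.36 and -3.27 on day 3. All 6 values were below 0, those of day 3 far lower, and the average was -1.88 ± 0.10 (SE, adjusted p = 2.67e-05, limma). A sterol C5 desaturase clone (STMEA40, average -1.19), a squalene monooxygenase clone (STMEL05, -0.99) and a sterol C14 reductase clone (STMFA04, -0.75) acted at other steps of the pathway and were likewise lower on every array of day 3 than on any array of day 1. The falls numbered 8 without replicate 2 of either day and 17 without day 3 replicate 1.

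Membrane lipids gave a mixed picture. Of 55 clones of lipid transfer, wax and fatty acid synthesis, 15 were lower and 4 higher, 8 and 4 of them one-signed. Falls were called for desaturases, which put double bonds into fatty acids: the plastid desaturase clone STMCP71 averaged -1.12, the omega-3 type desaturase clone STMED10 -0.83 and the oleate desaturase clone STMIY10 -0.79. The first and the third were lower on day 1 than on day 3, whereas STMED10 had a day difference of 0.10. The falls were 3 without day 3 replicate 2 and 23 without day 3 replicate 1.

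Proteinase inhibitors, which block digestive enzymes of insects and are induced by wounding in potato and tomato, had 12 falls among 21 clones, 5 of them one-signed, and 0 rises, with list medians of -0.00 on day 1 and -0.62 on day 3. The proteinase inhibitor II clones STMIY57 and STMCP16 had -2.46, -1.47 and -1.61, and -1.87, -1.29 and -0.99, on day 1. On day 3 they had -5.97, -2.62 and -2.68, and -5.58, -2.83 and -2.76. Day 3 replicate 1 was by far the lowest array in both, and their averages were -2.61 and -2.43 with that array and -2.22 and -2.08 without it. A trypsin inhibitor clone (STMJA26, average -0.83), a metallocarboxypeptidase inhibitor clone (STMJP33, -0.78) and a multicystatin clone (STMEH26, -0.36) were the other one-signed falls. The falls of the list were 4 without day 1 replicate 2 and 14, with 1 rise, without day 3 replicate 1, and the call of STMEH26 was lost without replicate 2 of either day (adjusted p up to 0.216, limma).

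Jasmonate is the hormone that induces those inhibitors in potato and tomato. The list of jasmonate and ethylene synthesis held 5 falls among 11 clones, all one-signed, and 0 rises, and 6 clones were not called. All 3 clones of 13-lipoxygenase, which starts jasmonate synthesis, were among them, at averages between -1.31 and -1.09. The clone STMCN05 read -0.62, -0.88 and -0.40 on day 1 and -2.50, -1.81 and -1.59 on day 3, with every value of day 3 below every value of day 1. An oxophytodienoate reductase clone (STMIL78, average -0.45) and a clone of aminocyclopropane carboxylate synthase (STMEA13, -0.67), the enzyme that makes the precursor of ethylene, were the other falls. Without replicate 2 of either day the list held 4 falls, STMIL78 losing its call at an adjusted p up to 0.162 (limma).

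Defence proteins moved in both directions. Of 32 clones of chitinases, glucanases, pathogenesis-related proteins and lectins, 8 were lower, all one-signed, and 8 were higher, 4 of them one-signed. Chitinases degrade the chitin of fungal walls. The endochitinase clone STMIX82 had -1.04, -0.55 and -0.50 on day 1 and -2.52, -2.002 and -1.88 on day 3, with an average of -1.38. The clones STMJI49 and STMHO72 share the annotation of a class 1 chitinase of pea, yet the first averaged -1.02 with every array below 0 and the second 1.30 with day 3 replicate 1 at -1.54. Leaving out replicate 2 of day 3 left 4 rises and 5 falls in the list. That of STMHO72 was among the calls lost, at an adjusted p up to 0.301 (limma).

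Of 90 clones of antioxidant and redox enzymes, 21 were lower, 9 of them one-signed, 8 were higher, all one-signed, and 61 were not called, beside 10.7% lower and 7.38% higher among all tested clones. The list's median average was -0.07. The dehydroascorbate reductase clone STMDO75, which recycles ascorbate, had -1.12, -0.74 and -0.82 on day 1 and -0.68, -0.89 and -0.90 on day 3, an average of -0.85 with a day difference of 0.07. A plastid thioredoxin clone, STMIC95, averaged -0.79 and was lower on day 3. A glutathione S-transferase clone, STMET22, of enzymes that couple glutathione to other compounds, averaged 0.94, with every array at 0.51 or above. The germin-like clone STMCM83 given above also counts in this list. There were 4 falls and 2 rises without day 3 replicate 2, and without day 3 replicate 1 there were 31 and 9.

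Heat shock proteins and chaperones fold other proteins. Of 67 clones, 19 were higher, 7 of them one-signed, and 4 were lower, 1 of them one-signed. The list's median ratios were 0.13 on day 1 and 0.10 on day 3, and in 12 of the 19 rises the days differed. All 6 clones annotated as an Hsp90-2-like protein were higher and 4 were one-signed. The clone STMHA96 had 1.53, 1.38 and 1.27 on day 1 and 0.41, 0.38 and 0.47 on day 3, which made an average of 0.90 from days that did not overlap. DnaJ-like clone STMHU53 averaged 0.65, Hsp70 clone STMGD17 0.56 and DnaJ clone STMGZ22 -0.37. STMGD17 lost its call without day 3 replicate 2 (adjusted p = 0.142, limma), and STMGZ22 without any 1 of 4 arrays (adjusted p up to 0.248, limma). The rises of the list were 6 without day 3 replicate 2 and 24 without day 3 replicate 1.

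Protein degradation held 23 rises and 10 falls among 149 clones of proteolysis and ubiquitin, with 7 and 6 of them one-signed. Among all tested clones 7.38% were higher and 10.7% lower. Beyond the vacuolar processing enzyme and the RING-H2 clone above, a subtilisin-like protease clone, STMIU77, averaged -0.997 with a day difference of -0.09, and a ubiquitin clone, STMCL20, averaged -0.71 with values of -1.53 to -0.90 on day 1 and -0.38 to -0.07 on day 3. Of the 15 tested clones with that ubiquitin annotation it was the single fall, 4 were called higher, none of them one-signed, and the median average was 0.19. Of 5 subtilisin-like clones of that annotation, 4 were lower and 3 of these were one-signed. The rises were 2 without day 1 replicate 2 and 33 without day 3 replicate 1, and STMCL20 lost its call without day 3 replicate 2 (adjusted p = 0.0731, limma).

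Osmolyte synthesis held more falls than rises. The list covers enzymes of proline, polyamines, betaine, inositol and related sugars, small solutes that plants hold against osmotic stress. Of 28 clones, 10 were lower, 6 of them one-signed, and 3 were higher, none one-signed. The arginine decarboxylase clone STMDE91, at the entry of polyamine synthesis, had -0.20, -0.21 and -0.34 on day 1 and -1.70, -1.33 and -1.20 on day 3, with an average of -0.81. Clones of S-adenosylmethionine decarboxylase (STMEO42, average -0.42), ornithine decarboxylase (STMCP52, -0.41) and trehalose-phosphate phosphatase (STMDZ40, -0.37) were lower with one sign and smaller changes. All 3 lost their call without replicate 2 of either day, at adjusted p up to 0.238 (limma). The falls were 2 without day 3 replicate 2 and 13 without day 3 replicate 1.

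A repeated fall was that of an enzyme that degrades a metabolite of stressed plants. All 3 clones of gamma-aminobutyrate transaminase, which breaks down gamma-aminobutyrate, were lower with one sign, at averages between -1.71 and -1.38. The clone STMCG71 had -1.45, -1.003 and -1.28 on day 1, against -2.48, -2.17 and -2.10 on day 3. Every array lay below -1, and day 3 minus day 1 was -1.01.

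Starch and sucrose metabolism had 6 rises and 5 falls among 29 clones, beside 7.38% higher and 10.7% lower among all tested clones. The 4 one-signed rises included an invertase inhibitor clone (STMJC15, average 1.11), which restrains the enzyme that splits sucrose. A sucrose synthase clone (STMHF04, 0.63) and an alpha-amylase clone (STMCZ41, 0.31) were also among them. Annotations among the 5 falls, none one-signed, were starch synthase and glucan phosphorylase. All 3 clones annotated as the small subunit of glucose-1-phosphate adenylyltransferase were called lower, none one-signed. Their median ratio was -1.10 on day 1 and 0.05 on day 3. STMJC15 read 1.65, 2.04 and 1.87 on day 1 and 0.09, 0.44 and 0.27 on day 3, with every value of day 3 below every value of day 1. Leaving out day 3 replicate 2 left 1 rise and 0 falls. STMHF04 lost its call without that array (adjusted p = 0.0566, limma) and STMCZ41 without any 1 of 4 arrays (adjusted p up to 0.322, limma).

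Phenylpropanoid, flavonoid and lignin synthesis had 4 rises and 4 falls among 38 clones, 3 of each one-signed, near the 7.38% and 10.7% of all tested clones. Leaving out day 1 replicate 2 left 1 rise and 0 falls. Tyramine hydroxycinnamoyl transferases make phenolic amides for the wall. Their clones STMIP44 and STMEZ84 averaged 0.63 and 0.56, and the day differences of 0.40 and 0.17 did not pass the test. A rhamnosyl transferase clone (STMGM14, average -0.60) and a flavonoid hydroxylase clone (STMIH34, -0.48) were lower. STMEZ84 and STMIH34 lost their calls without replicate 2 of either day and STMGM14 without day 1 replicate 2, at adjusted p up to 0.0844 (limma).

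Mitochondrial genes had 13 rises and 6 falls among 119 clones, 8 and 3 of them one-signed, beside 7.38% higher and 10.7% lower among all tested clones. A processing peptidase clone, STMDQ47, which trims imported proteins, averaged 1.03 and was higher on day 1, at 1.27 to 1.94, than on day 3, at 0.34 to 0.71. A porin clone of the outer membrane, STMCF61, averaged -0.76 with every array at or below -0.21. Without day 3 replicate 2 the list held 3 rises and 1 fall, and without day 3 replicate 1 it held 13 and 15. Nitrogen and sulfur assimilation held 0 rises and 1 fall among 23 clones.

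Histones and cell division had 8 rises and 2 falls among 63 clones, 1 of each one-signed, beside 7.38% higher and 10.7% lower among all tested clones. The rises were 1 without day 1 replicate 2 and 13 without day 3 replicate 1. The one-signed clones were 2 clones of different assemblies, both annotated as a cell division cycle protein 48 homolog. They were matched from pepper (STMGI71, average 0.35) and from soybean (STMCF13, -0.27). Cytoskeleton and commonly used reference genes had 0 rises and 9 falls among 48 clones, and the falls were 1 without day 3 replicate 2 and 22 without day 3 replicate 1. One-signed falls were called for a beta tubulin (STMIW62, -0.37) and a cyclophilin clone (STMGU36, -0.34). The one-signed rise among cytosolic ribosomal proteins was an S4 clone (STMEC73, 0.37). These 5 one-signed changes lost their calls when any 1 of 3 to 5 arrays was left out, with adjusted p up to 0.53 (limma).

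Markers of other tissues were represented by few clones, too few to set against the 18.0% called among all tested clones. Of 5 tuber and storage clones 1 was lower, a patatin, and without day 3 replicate 2 none was. Of 3 vascular clones none was called. Whether the makeup of the leaf differed between salt and control plants was not tested.

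**Figure D4:**
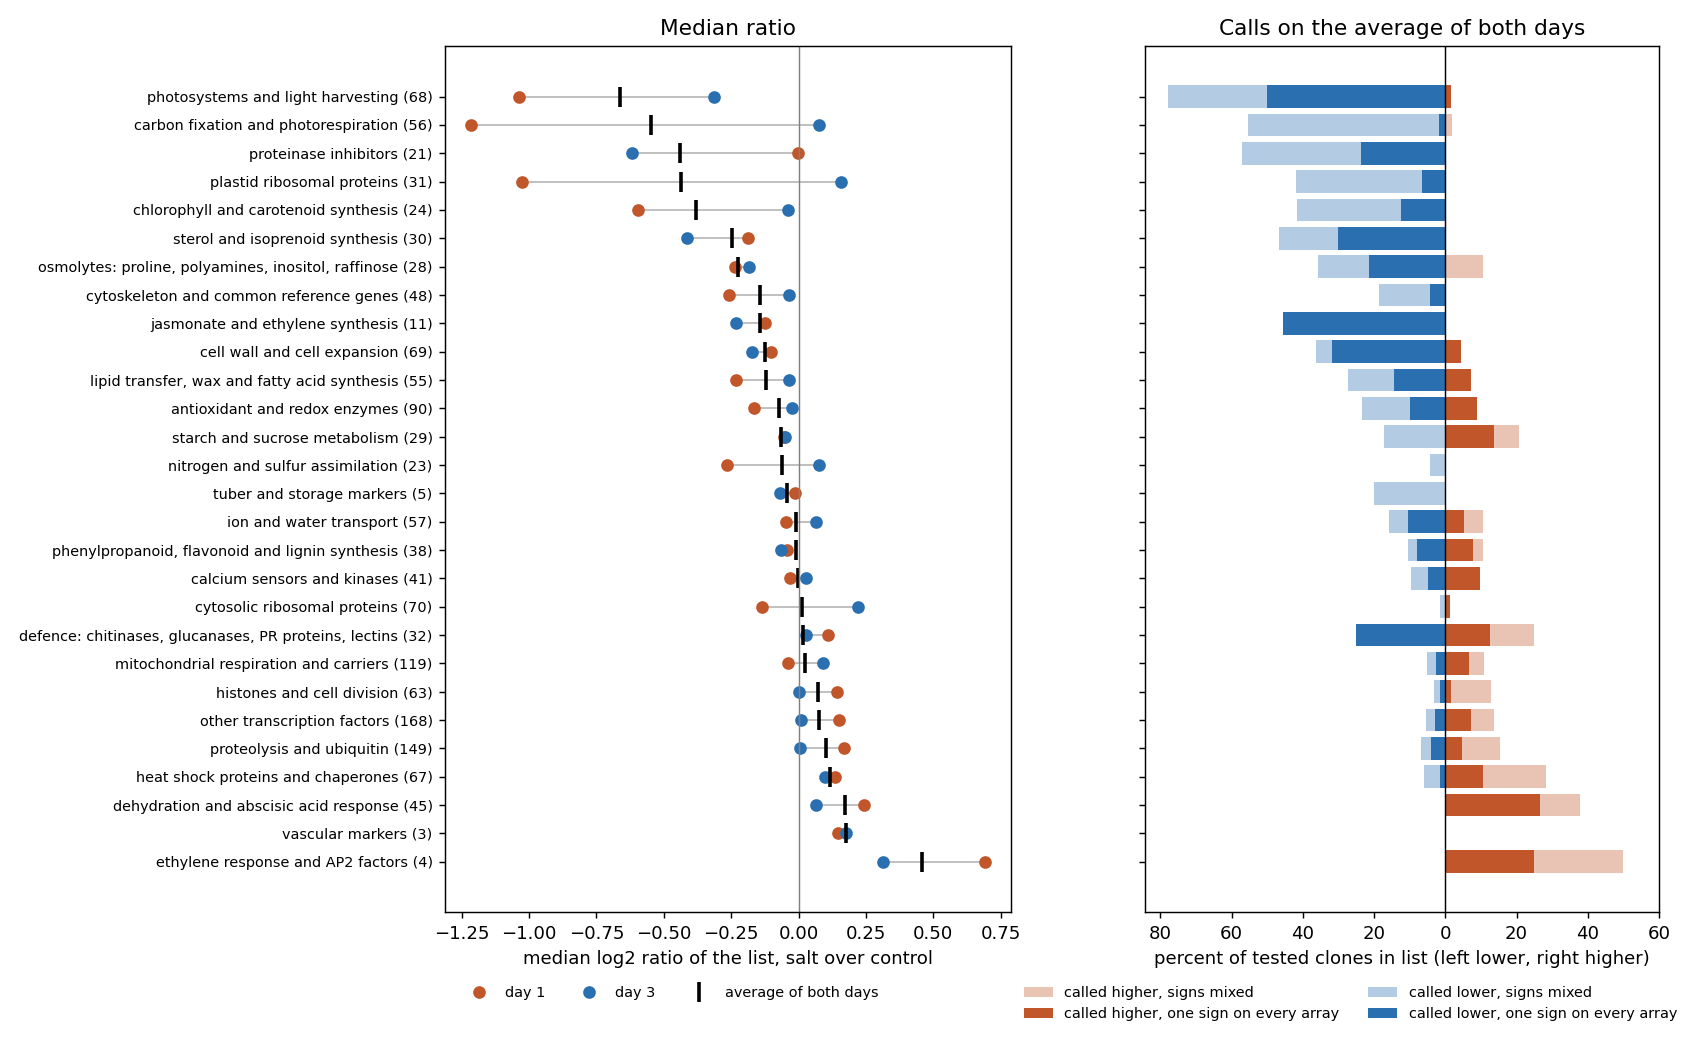
Left, median log2 ratio of salt over control of each gene list on day 1 (red), on day 3 (blue) and on the average of both days (black bar), with the number of tested clones in brackets. Right, percent of each list's clones called lower (left of 0) or higher (right of 0) on the average, dark where the clone had one sign on every array. Photosystems and cell wall hold long dark bars to the left, and carbon fixation a long bar of which almost none is dark.

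How many clones were called depended on which arrays entered. Leaving out day 3 replicate 1 gave 1419 lower and 1107 higher, more than with all 6 arrays, although 7709 clones were tested instead of 9030. The fits with an array left out tested between 7709 and 8912 clones. Their counts, and those of the lists above, are therefore not over the same clones. Leaving out day 3 replicate 2 gave 289 lower and 126 higher, and leaving out day 1 replicate 2 gave 452 and 209. These 2 are the arrays with salt in Cy5, and without one of them the dye term rests on a single array. Leaving out replicates 1 and 3 of day 1 gave 646 and 380, and 765 and 450. Leaving out replicate 3 of day 3 gave 823 and 499. Of the 114 clones named by rule, 27 lost their call without day 3 replicate 2, 20 without day 1 replicate 2, 8 and 6 without the other arrays of day 1, 3 without day 3 replicate 3 and 0 without day 3 replicate 1. Not all of the 114 could be tested each time: 112 were tested without day 1 replicate 1, day 3 replicate 1 or day 3 replicate 2. Without day 1 replicate 2 or 3 the number was 113. None of the named clones changed sign in a fit that tested it.

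**Figure D5:**
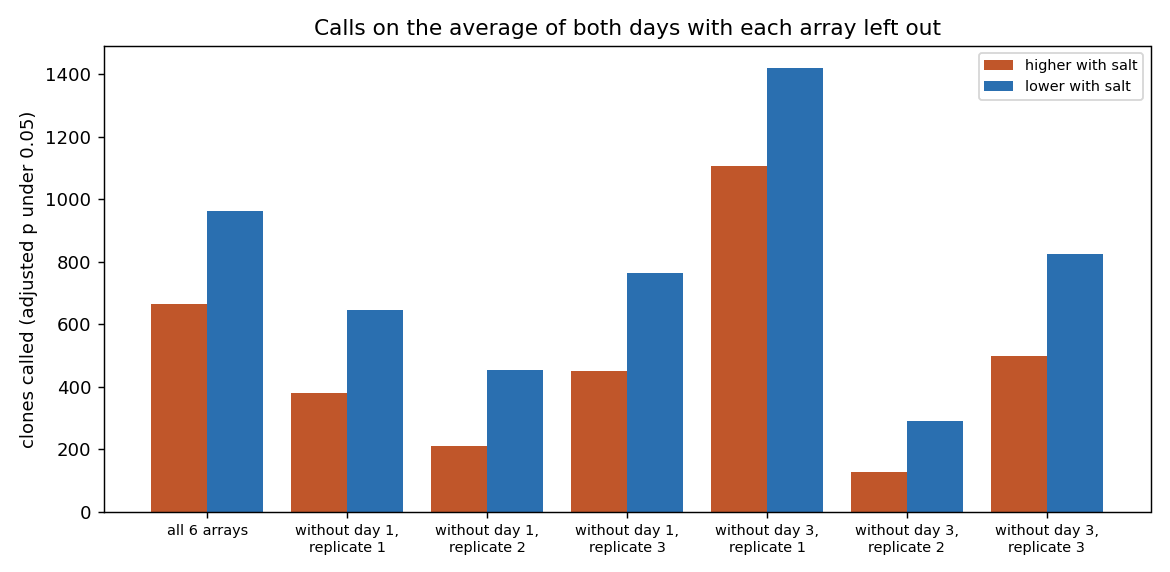
Clones called on the average of both days (vertical axis, adjusted p under 0.05) with all 6 arrays and with each array left out in turn, higher with salt in red and lower in blue. Falls outnumber rises in every fit, and the counts run between 289 and 1419 for falls and between 126 and 1107 for rises. The fits with an array left out tested between 7709 and 8912 clones.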

How the data were processed

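The log2 ratios, 1 per clone and array, were deposited by the authors, on arrays whose channel 1 held control and channel 2 salt RNA, per the labels, whichever dye each carried. For background correction, normalization and spot filters the labels give no settings (not given in the sources used here). The deposited p-values are the authors' one-sample tests per clone and day, per the file headers. An annotated table and the series' value table held the same ratios in 10499 of 10499 rows. No absolute intensities were used, so the depth behind a ratio is unknown, and precision is limited by the number of arrays.

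Ratios entered as deposited. Clones with at least 2 values on each day were fitted with limma 3.58.1 in R 4.3.3 (least squares, empirical Bayes), with columns for the average of both day means, for day 3 minus day 1 and for the dye. Of the 9030 clones, 1398 lacked at least 1 array and 2 had no estimable dye term. The dye term was called in 0 of 9028 clones (1611 at an unadjusted p under 0.05). P-values are two-sided and adjusted by Benjamini-Hochberg over all tested clones, with calls at an adjusted p under 0.05. They measure the spread between biological replicates, which hold 1 salt and 1 control sample on each array. The spread of a clone was estimated over both days together. The fit was tested on simulated ratios.

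The members, the 28 gene lists and the tests were chosen with earlier results of these data known. Lists are word patterns applied to the annotation, from which accidental matches were removed by name after the annotations were seen, so their counts describe the lists and carry no test. Named by rule were annotated, one-signed called clones: the 15 largest rises and falls, 5 per direction with the most equal days and up to 4 per list by smallest p. With the 5 largest calls per direction without one sign, they made 114 clones. Annotations with at least 3 clones called in one direction were listed apart from these, and only some of them are described here. No genome position or sequence of a clone was used here. Alternatives covered the dye and day terms, scaling, centring, clones tested, threshold, size, moderation, a replicate block, the direction by dye and each array left out. Tables and figures used Python 3.11.15, pandas 2.3.3, NumPy 2.4.6 and matplotlib 3.10.9.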

Additional observations from a re-analysis of the deposited data

Results flagged for a closer look

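In 49 of the 114 named clones the ratio differed between the days (limma, day 3 minus day 1, adjusted p under 0.05 over all tested clones), so that their average stands for unequal days. The difference was above 0 in 13 and below 0 in 36. On the log2 scale, 19 clones with lower averages were farther from 0 on day 3 than on day 1, with differences of STMGI29 -4.68, STMCL06 -4.58, STMCN85 -4.43, STMCH16 -3.87, STMGN13 -3.43, STMGM17 -3.41, STMGG42 -3.13, STMCQ19 -2.60, STMCI91 -2.53, STMEA40 -1.64, STMIX82 -1.44, STMCN05 -1.34, STMGT55 -1.24, STMEL05 -1.20, STMDE91 -1.16, STMCG71 -1.01, STMIC95 -0.89, STMFA04 -0.86, STMJP33 -0.83. In 12 clones with lower averages day 3 was closer to 0, with differences of STMCN52 0.61, STMCP71 0.67, STMHR52 0.72, STMCQ24 0.86, STMIY10 0.95, STMCL20 0.95, STMIS78 1.04, STMCK76 1.08, STMCP64 1.65, STMIY56 1.71, STMCV75 3.22, STMJC16 3.56. In 17 clones with higher averages day 3 was closer to 0, with differences of STMIA28 -2.62, STMHO72 -2.53, STMGI75 -2.08, STMCF40 -1.70, STMJC15 -1.59, STMIZ10 -1.59, STMIW38 -1.49, STMGF62 -1.44, STMGY04 -1.27, STMHL75 -1.17, STMDQ47 -0.99, STMHA96 -0.98, STMGD17 -0.92, STMHU53 -0.75, STMIT70 -0.70, STMHE88 -0.64, STMGY24 -0.60. In 1 clone with a higher average day 3 was farther from 0, STMIT24 2.06.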

How the results depend on the processing

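The sign of an average ratio rests on reading every array as salt over control. With the 2 arrays of salt in Cy5 (replicate 2 of each day) turned, 0 clones were called higher or lower (868 at an unadjusted p under 0.05), 0 kept one sign and a call, and 0 day differences were called (70 unadjusted), while 214 dye terms were called (limma). The median residual SD was then 0.266, against 0.204 as deposited. For clones measured on all arrays, the average of this reading is the dye term of the main fit with its sign changed (STMIU31: 0.21 and -0.21). The directions given below are for these clones those of dye terms. They do not test whether a salt response keeps its sign. Of the 114 named clones, 51 kept their direction without a call and 63 reversed, and list medians reversed for chlorophyll and carotenoid synthesis (0.095), dehydration response (-0.010), jasmonate and ethylene synthesis (0.033), ethylene response factors (-0.12), heat shock proteins (-0.0059) and vascular markers (-0.030). Falls that became averages above 0 were STMCF61 0.12, STMCI91 0.13, STMCK76 0.047, STMCL20 0.029, STMCM83 0.24, STMCN05 0.033, STMCN85 0.35, STMCP52 0.023, STMCP71 0.14, STMCQ24 0.017, STMCV10 0.070, STMCV37 0.14, STMCV75 0.33, STMDG03 0.049, STMEA11 0.072, STMEA15 0.015, STMED10 0.093, STMFB56 0.23, STMGI29 0.18, STMGM17 0.11, STMGN13 0.21, STMGU36 0.0014, STMIC95 0.058, STMIH34 0.098, STMIL78 0.073, STMIU31 0.21, STMIU77 0.18, STMIY56 0.0039, STMJI49 0.072. Rises that became averages below 0 were STMCF40 -0.016, STMCN79 -0.27, STMCR18 -0.093, STMCY54 -0.010, STMDD59 -0.089, STMEC73 -0.067, STMEF49 -0.20, STMEK04 -0.080, STMER65 -0.15, STMET22 -0.15, STMEZ82 -0.085, STMGF62 -0.16, STMGI75 -0.056, STMGY04 -0.066, STMHA35 -0.0014, STMHE88 -0.059, STMHF04 -0.083, STMHL75 -0.15, STMHO72 -0.074, STMHS15 -0.081, STMHT71 -0.51, STMHU53 -0.072, STMHY91 -0.17, STMIA28 -0.044, STMIK39 -0.19, STMIK40 -0.084, STMIP44 -0.14, STMIT70 -0.33, STMIU24 -0.24, STMIW38 -0.11, STMIZ10 -0.046, STMIZ28 -0.081, STMIZ85 -0.34, STMJC15 -0.14.

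Without a day term 139 clones were higher and 228 lower, 135 and 222 with one sign, and 58 named clones lost their call. An average beyond 1 in size left 46 higher and 157 lower, 35 and 99 with one sign, and 60 day differences above 0 and 62 below 0. At an adjusted p under 0.1, 419 day differences lay below 0. With each array left out in turn, rises ran between 126 and 1107, falls between 289 and 1419, their one-signed members between 95 and 777 and between 230 and 1013, and day differences between 50 and 440 above 0 and between 77 and 357 below 0. Omitting the dye term, scaling or centring arrays, robust moderation and the clones measured on all 6 arrays changed no named call. The last of these fits held 111 named clones. Same-numbered arrays of the days deviated together unevenly (r = 0.046, 0.596 and 0.451 across clones), so the numbers were not taken as pairs. A fit with the replicate block, which replaces the dye term, called 926 higher and 1201 lower, 444 and 558 with one sign, and 409 and 365 day differences above and below 0. The cause of these changes was not tested.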

Other observations

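Beyond the gene lists, some annotations recurred on several clones. These were chosen after their values were seen. All 4 clones annotated as the hypothetical protein PPS1 were lower with one sign on every array. Clone STMCZ36 of this annotation had -0.38, -0.43 and -0.35 on day 1 and -2.90, -2.76 and -2.65 on day 3. The 4 averages lay between -1.70 and -1.49.

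Annotations of the methyl cycle moved in both directions. All 5 clones of methionine synthase, which makes methionine from homocysteine, were called lower on the average, 0 of them with one sign, with a median ratio of -1.30 on day 1 and 0.16 on day 3. For adenosylhomocysteinase, which releases homocysteine, 3 of 4 clones were lower, at medians of -0.94 on day 1 and 0.21 on day 3. For S-adenosyl methionine synthase, which makes the methyl donor, 3 of 4 clones were higher, at medians of 0.42 on day 1 and 0.09 on day 3. All 4 clones of thioredoxin peroxidase, which removes peroxides, had the same form, at -1.70 on day 1 and -0.07 on day 3. All 4 clones of xylose isomerase were higher, at medians of 1.36 on day 1 and 0.15 on day 3, with 0 of one sign.

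Clones whose names begin with STMEA included a run of falls of near-equal size on all arrays. Over all 34 tested clones of that series 9 were lower with one sign, beside 5.56% of all tested clones. The range of numbers 02 to 30 was chosen with these values known. Of 13 tested clones in that range, 8 were lower with one sign, and none of these had a day difference above 0.328 in size. Their annotations differed: LEXYL2 on 3 clones, an aquaporin (STMEA30), aminocyclopropane carboxylate synthase (STMEA13) and, in STMEA02, none. What these clones have in common was not tested.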
